A study of Mus musculus with 6 samples.

Results

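Molecular chaperones are proteins that help other proteins to fold and keep damaged ones from clumping. The genes described here are 34 heat shock and endoplasmic reticulum (ER) chaperones, co-chaperones and their factors, chosen by name, and measured in heart RNA of wild-type and Cav1 knockout mice. A gene was followed through every probe set (a group of short probes against one transcript) to which the array's platform annotation assigned exactly 1 symbol. Of the 34 genes, 32 had such a probe set, 79 probe sets in all, out of 18193 genes and 45037 probe sets on the array. Hsp90ab1 and Hsf1 were not analysed here. The study hybridised 6 Affymetrix expression arrays, 1 per heart sample, 3 wild type and 3 Cav1 knockout. All 6 came from male mice aged 5 to 6 months that had fasted for 6 hours. The labels give neither the strain nor the deleted stretch of Cav1, the gene for caveolin-1, and they name no batch. Caveolin-1 is the protein around which caveolae, small pits of the cell surface, are built.

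Cytosolic chaperones of the HSP70, HSP90 and HSP110 families and their J-protein partners are switched on by heat shock factor 1 when proteins misfold, through heat shock elements in their promoters. Small heat shock proteins hold unfolded proteins without using ATP and are abundant in heart and skeletal muscle, where several bind the sarcomere. Chaperones of the ER lumen are raised together by the unfolded protein response, whose factor ATF6 acts on ER stress elements, and a separate set of chaperones works in mitochondria.

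Promoter windows of 300 bases, 250 before and 50 after each start of transcription, were taken from RefSeq (build GRCm38.p6), which held 27 of the 34 genes. Hsp90aa1, Hspa8, Cryab, Hspa9, Hspb2, Hsp90ab1 and Hsf1 had no window there and were not searched. The ER stress element, spelled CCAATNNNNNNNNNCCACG on either strand, lay in 6 of 9 ER chaperone promoters and in 0 of the 18 others. Over all promoters it was found for 0.137% of 27025 genes, or in 0.119% of 32851 windows. The stretches that hold it are printed because the element sets most ER genes apart from the rest by sequence, with the fixed letters of the element in capitals.
Hspa5, chr2:34772013-34772055, plus strand: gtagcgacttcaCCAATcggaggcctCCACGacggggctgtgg
Hsp90b1, chr10:86705626-86705668, minus strand: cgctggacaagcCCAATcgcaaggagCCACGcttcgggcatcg
Hsp90b1, chr10:86705521-86705563, minus strand: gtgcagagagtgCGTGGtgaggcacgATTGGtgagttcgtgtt
Dnajc3, chr14:118937815-118937857, plus strand: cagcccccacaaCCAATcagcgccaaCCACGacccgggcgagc
Calr, chr8:84847063-84847105, minus strand: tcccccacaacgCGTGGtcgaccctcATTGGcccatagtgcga
Canx, chr11:50325788-50325830, minus strand: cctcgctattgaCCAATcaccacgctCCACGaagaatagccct
Pdia6, chr12:17266479-17266521, plus strand: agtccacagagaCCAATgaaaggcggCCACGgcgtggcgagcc
Hsp90b1 carried the element at 2 places, once on each strand. No match to a second form of the element, ATTGGNCCACG, was present for the 27 genes, and 0.0444% of all genes held it.

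Heat shock elements are alternating GAA and TTC units. A run of 3 units, GAANNTTCNNGAA or its complement TTCNNGAANNTTC, lay in windows of 3 of the 27 genes, Hsph1, Hspd1 and Hspe1. It lay in windows of 0.662% of all genes. Hspd1 and Hspe1 face away from each other and their windows overlap by 285 bases, so their elements are the same stretch read from opposite strands. That stretch holds 4 units in a row, and units are in capitals.
Hspe1, chr1:55088047-55088088, plus strand: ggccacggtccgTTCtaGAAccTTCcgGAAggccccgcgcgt
Hspd1, chr1:55088047-55088088, minus strand: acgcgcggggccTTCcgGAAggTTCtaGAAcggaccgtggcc
Hsph1, chr5:149636281-149636308, minus strand: gctgcagaTTCtgGAAagTTCtcctcag
The Hsph1 stretch starts 7 bases after one of the annotated starts of transcription. The shorter 2-unit form, GAANNTTC, overlaps the 3-unit form. It was present for 11 of the 18 genes outside the ER group and 0 of the 9 ER genes, against 9.04% of all genes. Both Hspa1a and Hspa1b, which encode the stress-inducible HSP70, held it 104 bases before the start. Their windows were identical at 296 of 300 bases. In the next 2 stretches, capitals mark the element and the bases at which the 2 copies differ.
Hspa1a, chr17:34972237-34972376, minus strand: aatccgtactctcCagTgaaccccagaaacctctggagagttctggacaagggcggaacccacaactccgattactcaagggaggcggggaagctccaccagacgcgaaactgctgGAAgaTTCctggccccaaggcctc
Hspa1b, chr17:34959319-34959458, minus strand: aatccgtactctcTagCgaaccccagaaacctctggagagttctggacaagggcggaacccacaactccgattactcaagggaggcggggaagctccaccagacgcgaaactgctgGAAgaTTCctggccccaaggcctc
Hspb1, with 2 separate matches, is shown as the small heat shock protein whose promoter holds the most.
Hspb1, chr5:135887790-135887841, plus strand: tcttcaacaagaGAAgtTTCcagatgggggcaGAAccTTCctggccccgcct
A match says only that these letters are present, and binding was not measured.

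The summed deposited intensity was 11736722 on the array of wild type replicate 1, which stood apart, and 12225644 to 12397257 on the others. That array also had the lowest weight (0.399) when limma estimated array weights. Cav1, measured as a check of the labels, stood at normalised intensities of 3853, 3836 and 4216 in the wild-type hearts and 118, 101 and 101 in the knockout hearts, a log2 fold change of -5.02 ± 0.067 (SE, n = 3 per group, limma adjusted p = 1.65e-09). Here and below, intensities are quantile normalised, log2 fold changes are knockout minus wild type on the scale of log2(intensity + 16), and p is limma's, adjusted after Benjamini and Hochberg over all 22519 probe sets tested. Of cell type markers, 5 of 10 endothelial, 3 of 10 fibroblast and 4 of 10 macrophage genes rose and 0 fell. Over all 11486 genes, each at its brightest probe set, 2.97% rose and 1.05% fell. Of 10 ventricular cardiomyocyte genes 0 passed the test, and their summed intensity was 167631 to 169103 in wild-type and 166126 to 169307 in knockout hearts. Summed endothelial markers ran from 5421 to 5733 and from 6586 to 7513, fibroblast markers from 14064 to 15950 and from 16848 to 20289, and macrophage markers from 6318 to 7286 and from 7976 to 8472, in the same order of groups. Of 6 smooth muscle, 4 adipocyte, 2 skeletal muscle and 2 red blood cell genes tested 0 passed, and summed adipocyte markers ran from 549 to 2188 and from 234 to 607. No marker list summed to 0 in any heart. In tissue RNA a change in the number of cells of a type and a change in RNA per cell cannot be told apart, and the part of these cells in the chaperone values was not tested.

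No chaperone gene passed the test at its brightest probe set. With each gene at its brightest probe set by mean over the 6 hearts, 31 of the 32 genes could be tested and 0 passed an adjusted p of 0.05, against 4.02% of all 11486 genes measured the same way (2.97% higher and 1.05% lower in knockout hearts). By limma at an unadjusted p under 0.05 there were 9, 8 higher and 1 lower in knockout hearts, 29.0% of the 31 against 22.0% of all genes (11.1% higher and 11.0% lower). In 6 of the 31 (19.4%) all knockout values lay above all wild-type values and in 0 below, against 13.4% above and 15.2% below over all genes. The log2 fold change was above 0 for 25 of 31 genes, with a median of 0.078 and a range of -0.23 to 0.56. Over all genes 45.8% were above 0, with a median of -0.014. The 95% interval of the difference lay within 1.5-fold either way for 28 of the 31 genes (90.3%) and within 2-fold for 30 (96.8%), against 96.0% and 99.4% of all genes. Of the 38 weaker probe sets of these genes 2 rose, at Hspa1b and Hspb7, and 0 fell, against 3.17% of all probe sets (2.36% higher and 0.813% lower). Of these 38, 63.2% lay above 0, against 46.9% of all probe sets tested, brightest and weaker together. All knockout values lay above in 9 (23.7%) and below in 5 (13.2%), against 12.3% and 14.0%. Of 20 genes with over 1 tested probe set, 5 did not keep 1 sign: Hspa4, Hspa8, Hspa9, Hspe1 and Hspa5. Each of these was above 0 at its brightest probe set.

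**Figure D1:**
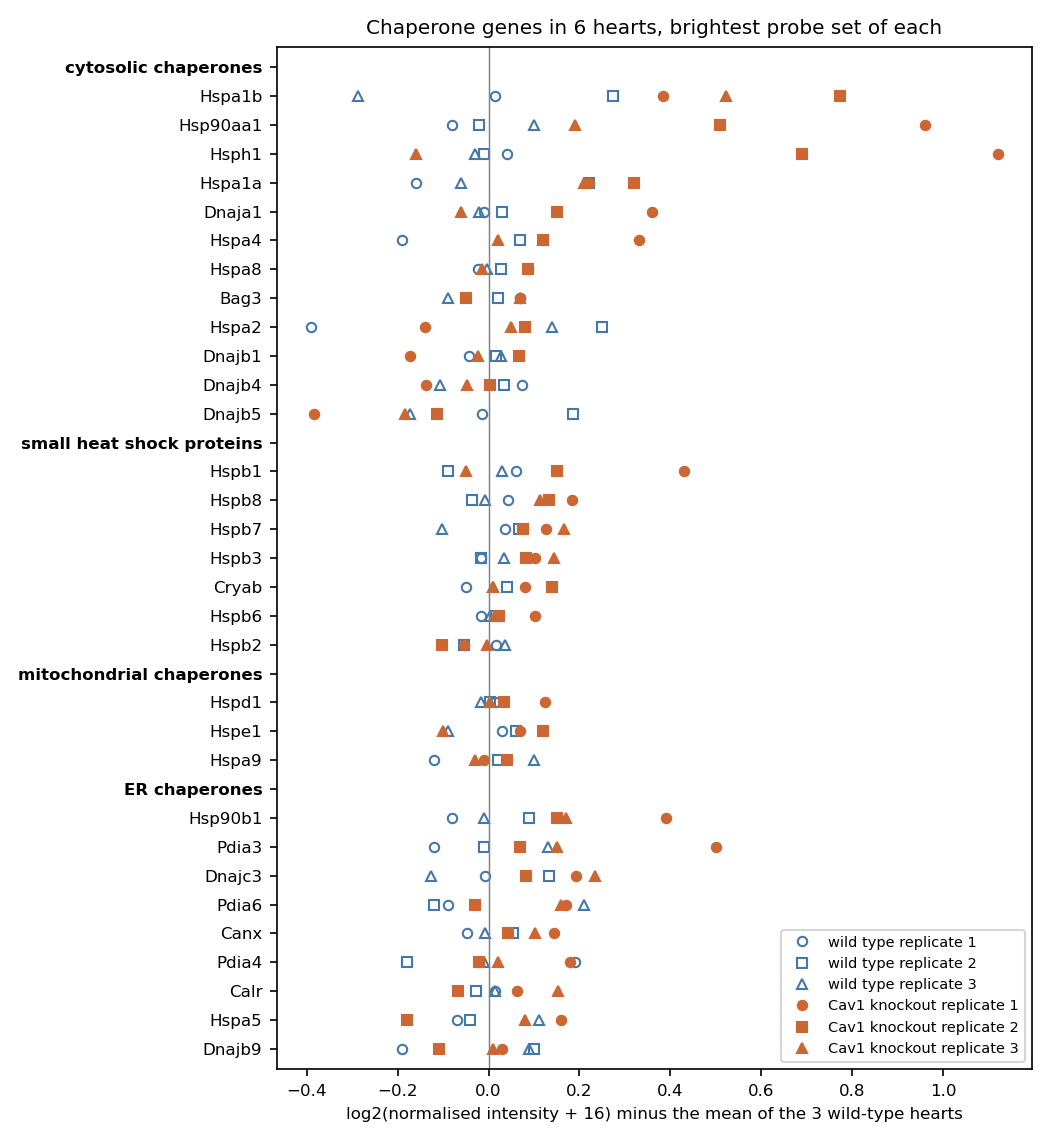
Level of each of the 31 tested chaperone genes in each heart at its brightest probe set, as log2(normalised intensity + 16) minus the mean of the 3 wild-type hearts (horizontal axis). Open symbols are wild-type and filled symbols Cav1 knockout hearts, and Hsph1 shows the widest spread, with knockout replicates 1 and 2 far above and replicate 3 below the wild-type hearts.

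Inducible HSP70 had a weaker probe set past the threshold. At its brightest probe set, Hspa1b stood at intensities of 113, 139 and 88.7 in wild-type hearts and 150, 202 and 167 in knockout hearts. All knockout values were higher, with a log2 fold change of 0.56 ± 0.14 (SE, n = 3 per group, limma adjusted p = 0.0795). At a weaker probe set it read 68.9, 104 and 70.5 against 122, 161 and 131. This probe set rose, by 0.68 ± 0.14 on the log2 scale (SE, n = 3 per group, limma adjusted p = 0.0409), or 1.60-fold with a 95% interval of 1.28 to 2.00. The faintest gave 27.7, 59.4 and 41.1 against 65.4, 89.9 and 71.5, a log2 fold change of 0.67 (limma adjusted p = 0.0881). The groups did not overlap at any of the 3 probe sets, and wild type replicate 2 was the highest wild-type heart at each. The call at the probe set that passed was past the threshold under 6 of 13 alternatives, and was lost when any heart other than wild type replicate 2 was left out (adjusted p of 0.0762 to 0.142). Hspa1a, at 40.9, 58.1 and 45.0 against 58.0, 63.5 and 57.8, overlapped between the groups, with a log2 fold change of 0.25 ± 0.10 (SE, n = 3 per group, limma adjusted p = 0.212). Since these copies are nearly identical, and some of these probe sets are of types that can bind more than 1 transcript, the share of each gene in these signals is uncertain.

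Hsp90aa1 and Hsph1 mRNA varied widely among the knockout hearts. Hsp90aa1, the inducible cytosolic HSP90, stood at 1320, 1373 and 1498 in wild-type hearts and 2727, 1985 and 1592 in knockout hearts. Knockout replicate 1 was the highest and replicate 3 close to the wild-type hearts, with a log2 fold change of 0.55 ± 0.16 (SE, n = 3 per group, limma adjusted p = 0.105). Weaker probe sets gave 0.68 (adjusted p = 0.122) and 0.47 (adjusted p = 0.229) by limma, and at each the knockout hearts stood in the same order. Hsph1, an HSP110 that exchanges nucleotide on HSP70, read 530, 511 and 503 against 1139, 837 and 459. Its wild-type hearts were nearly level, and knockout replicate 3 lay below all of them. The log2 fold change was 0.55 ± 0.25 (SE, n = 3 per group, limma adjusted p = 0.270) there and 0.63 at its other probe set (adjusted p = 0.254). Without knockout replicate 3, both genes passed, Hsp90aa1 at 0.73 (limma adjusted p = 0.0202) and Hsph1 at 0.90 (limma adjusted p = 0.00798). Without knockout replicate 1 the log2 fold changes were 0.35 and 0.26, and neither passed.

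Hspa8, the main HSP70 of unstressed cells, was nearly level. It stood at 6756, 7002 and 6852 against 7317, 7300 and 6828, a log2 fold change of 0.057 with a 95% interval of -0.022 to 0.13. Of its 3 weaker probe sets, 2 gave 0.045 and 0.065, and the faintest, at intensities of 32.6 to 147, gave -0.56 with overlapping groups (limma adjusted p = 0.360). Hspa4, another HSP110-type exchange factor, read 820, 987 and 1024 against 1182, 1019 and 954, a log2 fold change of 0.15 (limma adjusted p = 0.393), while its weaker probe sets gave -0.017 and -0.36. Its probe sets thus did not share a sign, and none passed. Hspa2, an HSP70 best known from testis, was at 55.1, 94.5 and 86.6 against 68.6, 82.1 and 80.5, a difference of -0.0029 with a wide 95% interval of -0.34 to 0.34.

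J-proteins hand clients to HSP70. Dnaja1 stood at 835, 855 and 826 against 1084, 932 and 801, with knockout replicate 1 high and replicate 3 below the wild-type hearts, and a log2 fold change of 0.15 (limma adjusted p = 0.385). That became 0.043 without knockout replicate 1 and 0.26 without knockout replicate 3. The weaker probe sets of Dnaja1 did not show this order of knockout hearts. One read 452, 412 and 391 against 449, 429 and 443 (0.074, limma adjusted p = 0.521). The other read 236, 241 and 167 against 251, 263 and 248, with all knockout hearts above (0.24, limma adjusted p = 0.293). Dnajb1, the main partner of inducible HSP70, gave 374, 392 and 395 against 341, 405 and 379, a log2 fold change of -0.046 with a 95% interval of -0.20 to 0.11. Its groups overlapped, and its sign turned in the intensities as deposited and after centring on the median (0.020 and 0.039). Dnajb4 gave 1609, 1573 and 1426 against 1393, 1537 and 1484, a difference of -0.061 (limma adjusted p = 0.568). Dnajb5, a J-protein found in heart and skeletal muscle, was the lowest of the 31 by log2 fold change. Its brightest probe set read 746, 856 and 664 against 572, 695 and 658, a difference of -0.23 ± 0.097 (SE, n = 3 per group, limma adjusted p = 0.238). At both weaker probe sets the groups did not overlap, with 280, 294 and 268 against 239, 237 and 246 at the one with the smaller p (log2 fold change -0.21, limma adjusted p = 0.0948). None of the 3 probe sets passed. Their differences shrank to between -0.17 and -0.12 in the intensities as deposited and to between -0.16 and -0.10 after centring on the median, and that of the brightest to -0.14 without wild type replicate 2 and -0.15 without knockout replicate 1. Bag3, a co-chaperone that links HSP70 to small heat shock proteins and autophagy in muscle, stood at 2286, 2202 and 2050 against 2285, 2109 and 2284, a difference of 0.031 with a 95% interval of -0.086 to 0.15. Hsf2, a heat shock factor, read 17.3 to 20.7 and 7.34 to 9.36 at its 2 probe sets, too low to be tested.

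**Figure D2:**
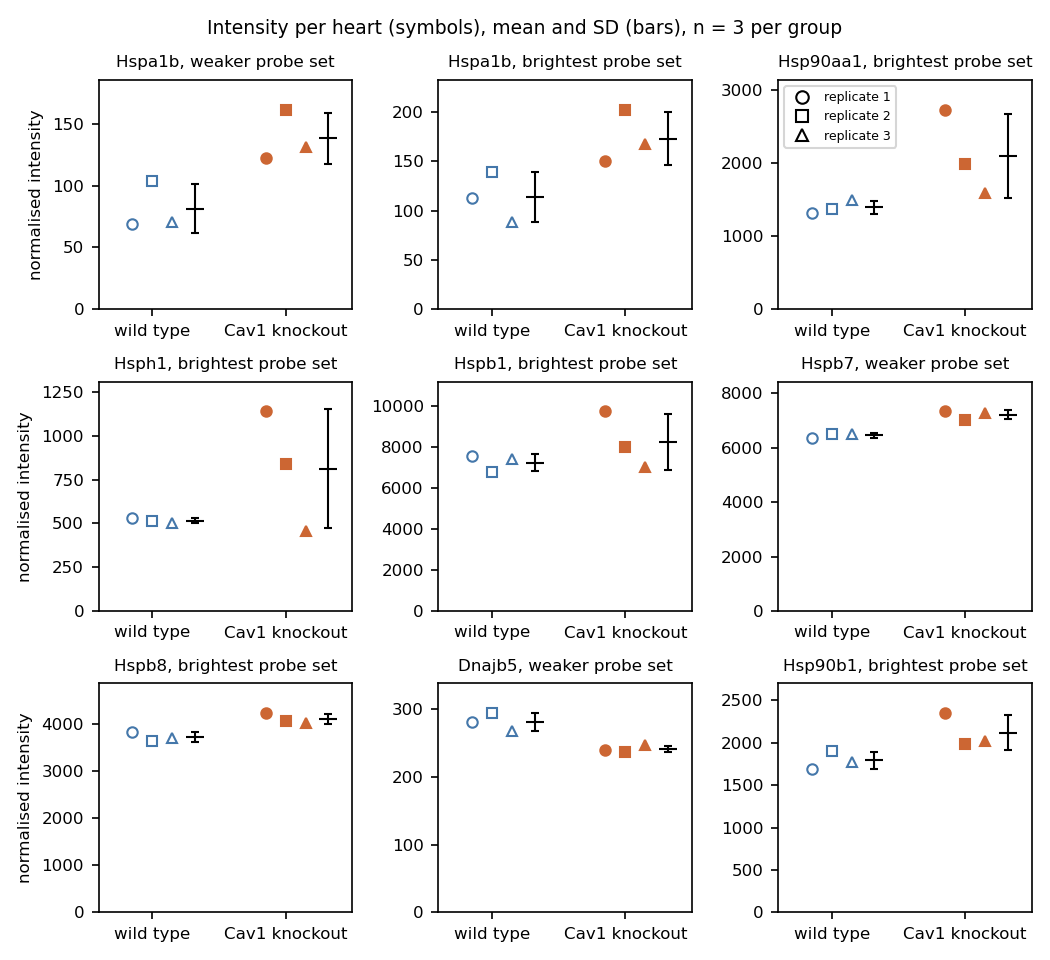
Normalised intensity (vertical axes, from 0) of 8 chaperone genes in each heart, Hspa1b at 2 probe sets and Hspb7 and Dnajb5 at a weaker one. Symbols are single hearts, bars the mean and SD of 3 hearts, and Hsph1 ran from 459 to 1139 among the knockout hearts against 503 to 530 among the wild-type hearts.

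Among the small heat shock proteins 0 of 7 passed at the brightest probe set, against 4.02% of all genes. The log2 fold change was above 0 for 6 of 7 (85.7%), against 45.8% of all genes, with a median of 0.11. In 3 of 7 (42.9%) all knockout hearts lay above all wild-type hearts, against 13.4% of all genes. Hspb7, a cardiac small heat shock protein needed for sarcomere integrity, rose at a weaker probe set, with 6343, 6519 and 6508 in wild-type hearts against 7333, 7031 and 7277. The groups were clearly apart but the step was small, 0.16 ± 0.029 on the log2 scale (SE, n = 3 per group, limma adjusted p = 0.0247), or 1.12-fold with a 95% interval of 1.07 to 1.17. Its brightest probe set gave 9655, 9876 and 8782 against 10283, 9918 and 10583, a difference of 0.12 (limma adjusted p = 0.186), and the remaining one gave 0.13 (adjusted p = 0.136). None of the 3 probe sets overlapped between groups. The call was past the threshold under 8 of 14 alternatives and was lost when any heart other than wild type replicate 2 was left out (adjusted p of 0.0554 to 0.119).

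Hspb8, the partner of BAG3 in clearing damaged filament proteins, stood at 3835, 3630 and 3697 against 4234, 4067 and 4016. All knockout hearts were higher, with a log2 fold change of 0.14 ± 0.036 (SE, n = 3 per group, limma adjusted p = 0.0750), the smallest adjusted p among the 31 genes. A weaker probe set also gave 0.14 without overlap, and the faintest gave 0.044 with overlap. Hspb3, a muscle small heat shock protein that binds Hspb2, gave 330, 328 and 341 against 359, 353 and 370, again with no overlap, a difference of 0.11 (limma adjusted p = 0.272). Hspb2 itself gave 1047, 995 and 1060 against 993, 962 and 1028, a difference of -0.055 (limma adjusted p = 0.521). Hspb1, known as HSP25 in mice, read 7531, 6756 and 7379 against 9720, 7992 and 6989. The knockout hearts stood in the order seen for Hsph1, and the difference was 0.18 ± 0.10 (SE, n = 3 per group, limma adjusted p = 0.351). It was 0.051 without knockout replicate 1 and 0.29 without knockout replicate 3. Cryab, or alpha B-crystallin, among the most abundant small heat shock proteins of heart, stood at 10676, 11318 and 11093 against 11666, 12174 and 11093, a difference of 0.078 with a 95% interval of -0.0081 to 0.16. Its weaker probe set gave 0.10 (limma adjusted p = 0.245) and passed only without knockout replicate 3 (0.15, adjusted p = 0.0447). Hspb6 gave 9302, 9508 and 9459 against 10106, 9573 and 9508, a difference of 0.046.

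Mitochondrial chaperones did not differ detectably. Hspd1, the HSP60 barrel of the mitochondrial matrix, stood at 4443, 4395 and 4332 against 4776, 4513 and 4395, a log2 fold change of 0.054 with a 95% interval of -0.029 to 0.14. Its lid Hspe1 gave 2572, 2635 and 2375 against 2654, 2744 and 2347, a difference of 0.029 with an interval of -0.11 to 0.17. The weaker probe set of Hspe1 gave -0.094, also with overlap (limma adjusted p = 0.469). These genes, which share the promoter stretch printed above, both had overlapping groups. Hspa9, the mitochondrial HSP70, gave 2189, 2422 and 2552 against 2375, 2462 and 2338 at its brightest probe set, a difference of 0.0049. Its 4 weaker probe sets lay between -0.25 and -0.10, and 3 of them had all knockout hearts below, with none past the threshold (smallest limma adjusted p = 0.138). The brightest and the weaker probe sets of Hspa9 therefore read differently.

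**Figure D3:**
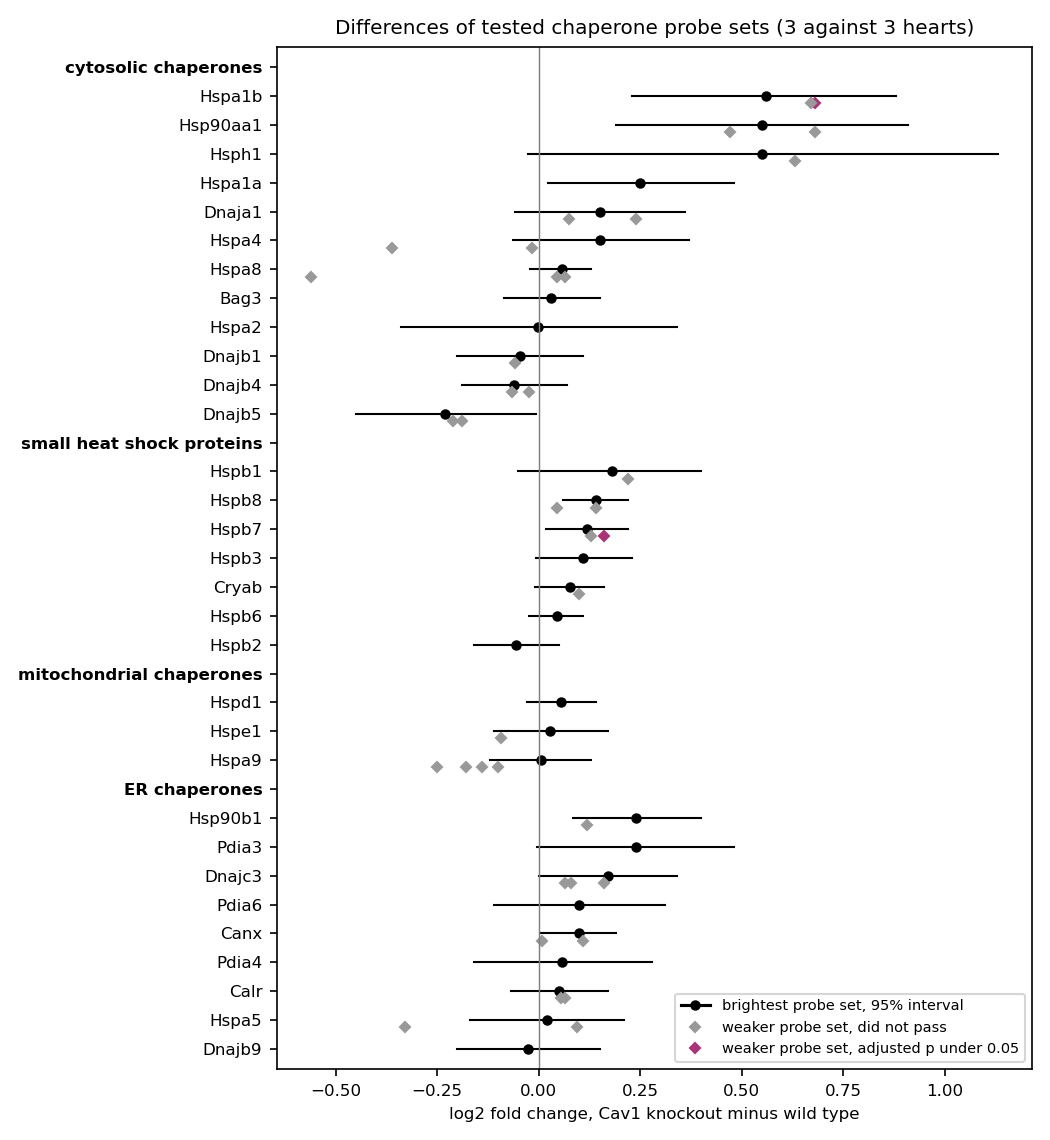
Log2 fold change, Cav1 knockout minus wild type (horizontal axis), of each tested chaperone gene. Black points with lines are the brightest probe set and its 95% interval, and diamonds are weaker probe sets, of which 2 of 38 passed (Hspa1b and Hspb7).

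Among the 9 ER chaperones 0 passed, against 4.02% of all genes, and 8 (88.9%) lay above 0, against 45.8%. Their median log2 fold change was 0.10. Hsp90b1, the ER form of HSP90, stood at 1697, 1904 and 1775 against 2353, 1990 and 2022. It was the only ER member of these 9 (11.1%) without overlap at its brightest probe set, against 13.4% above and 15.2% below over all genes. The log2 fold change was 0.24 ± 0.069 (SE, n = 3 per group, limma adjusted p = 0.106) there and 0.12 at a weaker one. Without knockout replicate 1 these became 0.16 and 0.0087. Pdia3, a disulphide isomerase that works with calnexin and calreticulin, gave 1358, 1458 and 1618 against 2088, 1547 and 1632. The difference of 0.24 ± 0.11 (SE, n = 3 per group, limma adjusted p = 0.255) became 0.11 without knockout replicate 1. Dnajc3, a J-protein that also restrains the kinase PERK, gave 370, 407 and 340 against 426, 394 and 440, a difference of 0.17 (limma adjusted p = 0.246). Its 3 weaker tested probe sets gave 0.064 to 0.16, and 2 of them did not overlap.

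Hspa5, or BiP, the ER HSP70 and the usual readout of the unfolded protein response, was close to level. It read 2980, 3036 and 3370 in wild-type hearts and 3492, 2756 and 3307 in knockout hearts, a log2 fold change of 0.021 with a 95% interval of -0.17 to 0.21. Weaker probe sets gave 0.094 and -0.33, with overlapping groups at all 3. The lectin chaperones Calr and Canx gave differences of 0.051 (95% interval -0.067 to 0.17) and 0.10 (0.0042 to 0.19, limma adjusted p = 0.233). Calr stood at 2977, 2902 and 2991 against 3089, 2830 and 3287. Canx stood at 2409, 2576 and 2475 against 2739, 2566 and 2675. Of the remaining isomerases, Pdia6 gave 683, 670 and 847 against 824, 711 and 817, a difference of 0.10 (limma adjusted p = 0.568). Pdia4 gave 265, 201 and 228 against 262, 226 and 232, a difference of 0.057 (limma adjusted p = 0.765). Dnajb9, a J-protein of ER-associated degradation, gave 1527, 1873 and 1855 against 1776, 1613 and 1749, a difference of -0.027 (limma adjusted p = 0.865). All 3 overlapped between the groups. The 6 genes with an ER stress element in the promoter window ran from 0.021 (Hspa5) to 0.24 (Hsp90b1), and the 3 without, Pdia3, Pdia4 and Dnajb9, from -0.027 to 0.24.

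The spread of several chaperones within the knockout group was wide. It was larger than among wild-type hearts for 15 of the 31 genes and smaller for 16, against 38.0% and 62.0% of all genes. The SD among the 3 knockout hearts, on the log2 scale, was widest for 5 genes: 0.65 for Hsph1, 0.39 for Hsp90aa1, 0.24 for Hspb1, 0.23 for Pdia3 and 0.21 for Dnaja1, against 0.037, 0.092, 0.083, 0.13 and 0.025 among wild-type hearts. Among genes that went the other way, the SD was 0.34 in wild-type and 0.12 in knockout hearts for Hspa2, and 0.20 and 0.061 for Hspa1a. These values are from the brightest probe sets. At its weaker probe sets Dnaja1 had a knockout SD of 0.032 and 0.041, against 0.10 and 0.28 among wild-type hearts. For Hsph1 the knockout SD was larger than for 99.9% of all genes, and for Hsp90aa1 larger than for 99.6%. The median knockout SD was 0.11 over the chaperone genes and 0.061 over all genes, while the wild-type medians were 0.083 and 0.079. Knockout replicate 1 was the highest heart for 13 of 31 genes (41.9%), against 15.4% of all genes. Wild type replicate 1 was the lowest for 12 (38.7%), against 23.0% of all genes, and it was also the highest heart for 28.7% of all genes. By median deviation from the wild-type mean, the knockout hearts stood at 0.13, 0.073 and 0.022 over the 31 genes (replicates 1 to 3). In knockout replicate 1 the summed endothelial markers were also the highest of any heart (7513). Acta1, the skeletal muscle actin, named after its values were seen, read 7608, 6469 and 4149 in the knockout hearts against 3679, 3440 and 4457. Of 8 skeletal muscle markers 2 could be tested, with log2 fold changes of 0.62 (Acta1) and -0.066, and neither passed. Acta1 made up most of the sum of that list, which was 7776, 6636 and 4316 against 3863, 3620 and 4632. The part of the endothelial markers or of Acta1 in the chaperone values was not tested.

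Immediate early genes respond to stimuli within minutes and were read beside the chaperones. Of 9 tested, 0 rose and 1 fell, against 2.97% and 1.05% of all genes. The 1 that fell was Dusp1, a MAP kinase phosphatase, at 1496, 1654 and 1471 against 1046, 1227 and 1281 (log2 fold change -0.38, limma adjusted p = 0.0370). That call was past the threshold under 5 of 14 alternatives. Fos, named after its values were seen, ran from 67.3 to 124 in wild-type hearts and from 55.0 to 224 in knockout hearts, lowest in knockout replicate 1 and highest in replicate 3. For Hsph1, Hsp90aa1 and Hspb1 the order of the knockout hearts was the opposite.

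Other genes of the same pathways were read the same way. Of 35 other cytosolic chaperones and co-chaperones 0 passed by limma, against 4.02% of all genes, and 1 (2.86%) had an unadjusted p under 0.05, against 22.0%. Their median log2 fold change was 0.030. The smallest p among them belonged to Cct6a, a subunit of the TRiC folding ring (0.10, limma adjusted p = 0.248), Hspa12b, an endothelial HSP70 relative (0.20, adjusted p = 0.271), and Chordc1, an HSP90 co-chaperone (0.21, adjusted p = 0.291). Chordc1 read 499, 547 and 521 against 721, 598 and 516, and Hspa4l, an HSP110 picked after its values were seen, 413, 413 and 445 against 594, 482 and 364. Both placed the knockout hearts in the order seen for Hsph1.

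Of 9 other mitochondrial chaperones and proteases 0 passed by limma, against 4.02% of all genes. An unadjusted p under 0.05 was found for 2 (22.2%), against 22.0% of all genes. Their median log2 fold change was -0.082. In 4 of the 9 (44.4%) all knockout hearts lay below all wild-type hearts, against 15.2% of all genes. Clpx, the unfoldase of the matrix protease, stood at 1031, 961 and 984 against 852, 945 and 853, a difference of -0.17 (limma adjusted p = 0.144). Trap1, the mitochondrial HSP90, and Clpp, the protease itself, both gave -0.11 (limma adjusted p = 0.246 and 0.272).

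Of 35 other ER folding and unfolded protein response genes 1 passed, against 4.02% of all genes, and that gene rose. Serpinh1, the collagen-specific chaperone HSP47, stood at 1791, 1770 and 1849 in wild-type hearts and 2680, 2326 and 2248 in knockout hearts. All knockout hearts were higher, by 0.42 ± 0.062 on the log2 scale (SE, n = 3 per group, limma adjusted p = 0.0105), and the call held under all 14 alternatives at this probe set. A weaker probe set gave 0.31 (limma adjusted p = 0.108). Summed fibroblast markers, which include collagen genes, were higher in knockout hearts as given above. Those that passed were Col1a1, Col3a1 and Postn. The other 7 of 10 did not pass, among them Tcf21 (0.045), Dpt (0.062) and Pdgfra (0.12), named after their values were seen. The part of fibroblasts in the Serpinh1 value was not tested. The median over the 35 genes was 0.073, and 27 (77.1%) lay above 0, against 45.8% of all genes. All knockout hearts lay above in 10 (28.6%) and below in 2 (5.71%), against 13.4% and 15.2% of all genes. Genes of the unfolded protein response itself, named after their values were seen, did not pass: Xbp1 gave 0.14 (limma adjusted p = 0.169), Atf4 -0.0041 (adjusted p = 0.978) and Ddit3 -0.17 (adjusted p = 0.165). Edem1, of ER-associated degradation and also named after its values were seen, gave 0.15 at its brightest probe set (limma adjusted p = 0.309). It rose by 0.53 at a weaker one (limma adjusted p = 0.0440), which read 71.3, 99.8 and 95.6 against 143, 142 and 120. Over all probe sets tested 3.17% passed.

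**Figure D4:**
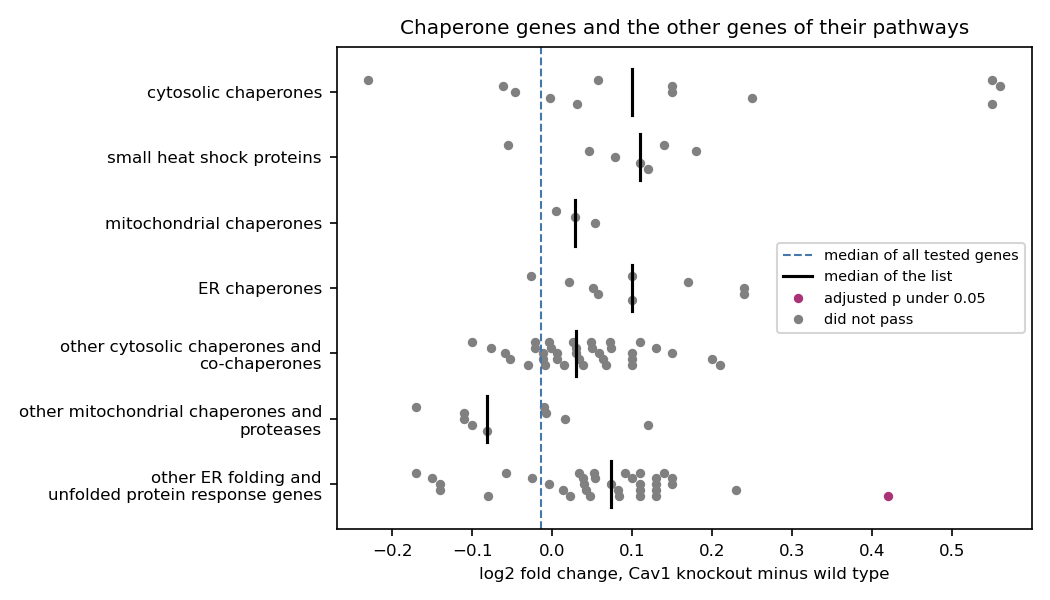
Log2 fold change of each gene at its brightest probe set (horizontal axis) for the 4 chaperone groups and 3 lists of other genes of the same pathways. Vertical bars are list medians, the dashed line is the median of all tested genes (-0.014), and Serpinh1 at 0.42 is the only gene in the plot past the threshold.

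Scaling of the arrays moved the signs of small differences. Fold changes were above 0 for 25 of the 31 chaperone genes after quantile normalisation, 28 in the intensities as deposited and 29 after centring each array on its median. The median over all probe sets moved with it, from -0.0096 to 0.032 and 0.051, and that of the chaperone genes from 0.078 to 0.10 and 0.12. Of all calls, 74.4%, 90.9% and 93.5% were higher in knockout hearts, in the same order. No chaperone gene passed at its brightest probe set under any of these scalings. With array weights, Hspb8 (0.15, limma adjusted p = 0.0368) and Hspa1b (0.65, adjusted p = 0.0361) passed. Without wild type replicate 2, Hspa1b (0.70, limma adjusted p = 0.0351) and Hspa1a (0.36, adjusted p = 0.0489) passed.

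**Figure D5:**
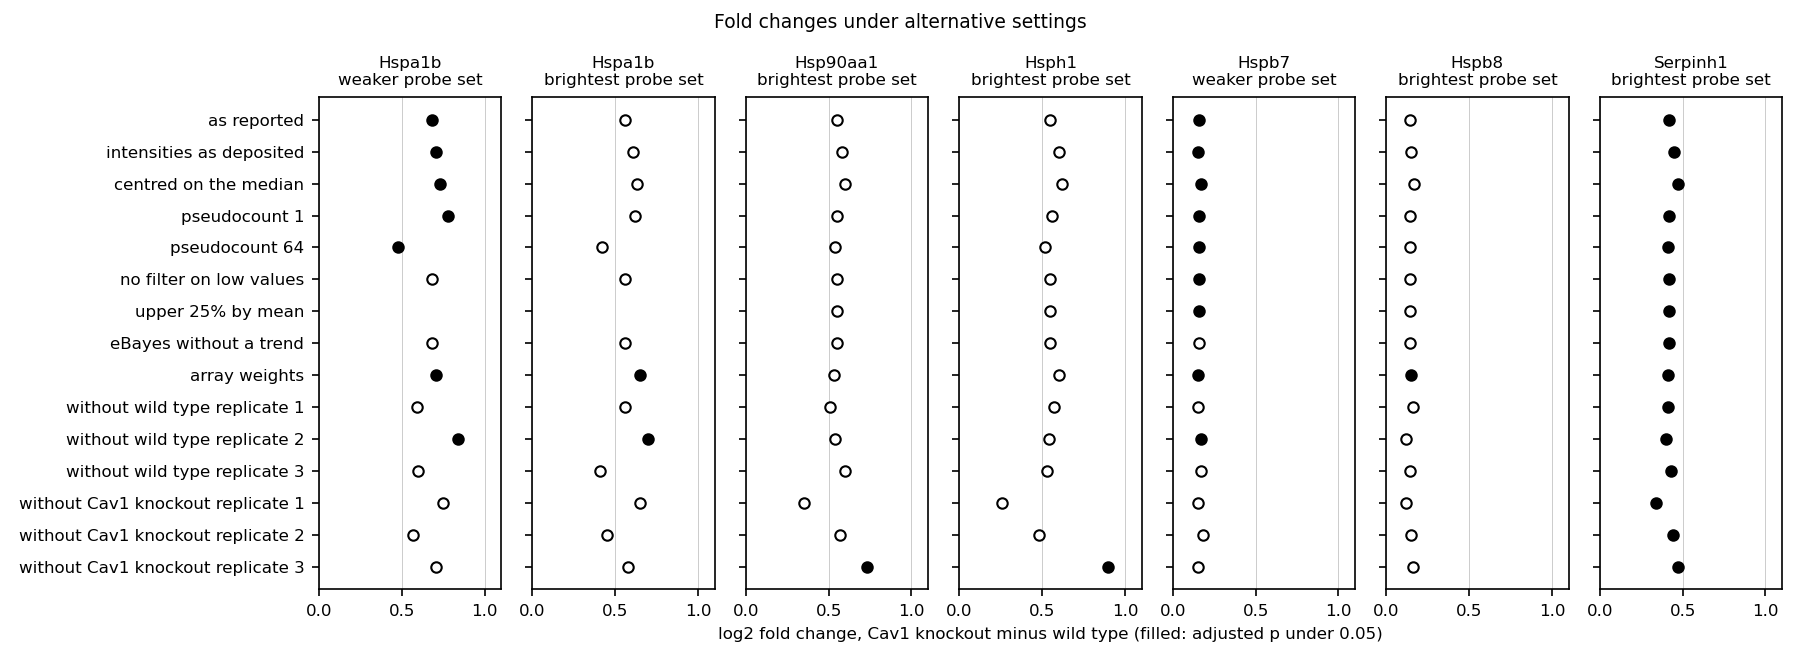
Log2 fold change (horizontal axes) of 6 genes at 7 probe sets under each processing alternative (rows), with filled points past an adjusted p of 0.05. Serpinh1 stayed past it in every row, and Hsp90aa1 and Hsph1 passed only in the row that leaves out knockout replicate 3.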

How the data were processed

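Each sample had 1 array. The deposited table gives 1 linear intensity per probe set and array. Per the labels' protocols RNA was extracted with Trizol and 2 ug labelled with the One-Cycle kit, and GCOS 1.4 stands in the submitters' processing notes. How the authors summarised, background-corrected and scaled the values is, in the sources used here, not given. The deposited intensities' trimmed means differed by 8.42% between arrays, so 64 control probe sets were dropped, the other 45037 quantile normalised, and log2(intensity + 16) taken. Knockout minus wild type was fitted with limma 3.58.1 (R 4.3.3; lmFit, eBayes with trend, no covariate) over the 22519 probe sets in the upper 50% by mean, and tested on simulated data. No fold limit was set. Nothing says that each sample was a separate animal, so p measures the spread between samples, and the number of arrays limits precision. Symbols came from the array's platform annotation. Named were all members, Cav1, and of each further pathway list the genes past the threshold or otherwise the 3 with the smallest p, and others are marked as named after their values were seen. Members and lists were chosen with earlier results of these data known. The 2-unit motif was added after seeing the data. In all, 15 alternatives were run.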

Additional observations from a re-analysis of the deposited data

How the results depend on the processing

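With 3 against 3 arrays, a difference whose 95% interval holds 0 cannot be told from it. The intervals are not adjusted for the number of probe sets tested, so one that leaves out 0 is not a pass. By limma, 9 of the 31 genes had an unadjusted p under 0.05 and 0 passed. Fits without 1 heart assume that the group of 2 varies like the other. No paired analysis was made, since the sample titles name no pairs of hearts. The knockout titles carry no replicate number, so those hearts were numbered in the order listed, which only names them. Members past the threshold at their brightest probe set were 0, 2 with array weights, 1 with a gene's probe sets averaged (Hspb7, 0.14, adjusted p = 0.0270), and 0 to 2 without 1 heart. Non-overlapping members were 6 to 15 without 1 heart, which by construction overlaps less. There were 8 without wild type replicate 1 (25.8%, against 37.4% of all genes). Without wild type replicate 2 there were 11 (35.5%, 46.0%), and without replicate 3 there were 10 (32.3%, 37.7%). Leaving out knockout replicate 1 gave 6 (19.4%, 35.3%), replicate 2 gave 11 (35.5%, 36.4%) and replicate 3 gave 15 (48.4%, 41.3%). Probe sets past the threshold numbered 714, 411 without a trend, 1171 with array weights and 191 to 742 without 1 heart (465 without wild type replicate 1, 300 without wild type replicate 3, 191 without knockout replicate 1 and 226 without knockout replicate 2). The members' median of 0.078 became 0.12 centred on the median and 0.051 to 0.12 without 1 heart, the ends without knockout replicates 1 and 2. Averaging probe sets gave 1 call among the other mitochondrial genes (Clpx, -0.22) and 2 among the other ER genes (Edem1 and Serpinh1). Of 985 single values, 910 kept their direction and side of the threshold, 22 lost a call, 11 gained one and 42 changed sign, with 0 of these past the threshold. Signs turned in the intensities as deposited for Hspa2 (0.0072), Hspa4 (weaker probe set, 0.036), Dnajb1 (0.020 and 0.011) and Dnajb9 (0.015). Centred on the median they turned for Hspa2 (0.026), Hspa4 (0.054), Dnajb1 (0.039 and 0.029), Dnajb4 (weaker, 0.0070), Hspb2 (0.0012) and Dnajb9 (0.034), with pseudocount 1 for Hspa2 (0.0023), and with array weights for Hspa4 (0.0042), Hspa9 (-0.038), Hspa5 (-0.027) and Canx (weaker, -0.0071). Without 1 heart the values ran from -0.093 to 0.066 for Hspa4 (weaker), -0.056 to 0.054 for Hspa9, -0.049 to 0.12 for Hspa5, -0.035 to 0.046 for Canx (weaker), -0.20 to 0.12 for Hspa2, -0.12 to 0.024 for Dnajb9, -0.033 to 0.15 for Pdia4, -0.10 to 0.018 and -0.13 to 0.0032 for Dnajb1, -0.10 to 0.049 for Dnajb4 (weaker), -0.013 to 0.069 for Bag3, -0.017 to 0.10 for Hspe1 and -0.014 to 0.11 for Dnajc3 (weaker). The cause was not tested.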
